A study of Mus musculus with 6 samples.

Results

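The extracellular matrix that cells secrete holds, beside collagens, a set of glycoproteins, laminins and proteoglycans. The 35 genes described here are a fixed list of such non-collagen matrix genes, looked up by symbol in a table of 49585 counted genes, and all 35 were found. They were measured in AML12 cells, a mouse hepatocyte line, collected 24 h after transfection with an over-expression construct that carried the open reading frame of either Zac1 or EGFP, the fluorescent protein that serves as the control. Each group has 3 polyA RNA-seq libraries, EGFP 1, 2 and 3 and Zac1 4, 5 and 6, and a transfection with a construct is shared by both groups. Whether the libraries of a group stem from separate cultures is not stated. The p-values below therefore measure only the spread among these samples, and that spread may be technical. The labels give neither the promoter of the construct nor the share of cells that took it up, so more expressing cells and more RNA per cell cannot be told apart in any difference below.

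Laminins are trimers of an alpha, a beta and a gamma chain that polymerise into the sheet of the basement membrane, where nidogens and the heparan sulfate proteoglycans perlecan and agrin link them to collagen IV and to the cell surface. Elastic fibres are built on fibrillin microfibrils, with elastin, fibulins and EMILINs added to them. Matricellular proteins such as thrombospondins and tenascin-C act on cells and growth factors more than they build structure. In liver, most of these proteins are made in quantity by stellate and endothelial cells, and fibronectin is a main hepatocyte product.

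The imprinted gene Plagl1 encodes Zac1, a transcription factor with zinc fingers. Its read counts were 39, 79 and 67 with EGFP, against 106033, 135108 and 148382 with Zac1. Library totals ran from 14801240 to 15145092 reads with EGFP and from 16104498 to 18302538 with Zac1, so each Zac1 library was deeper than each EGFP library. Numbers of reads given for single genes are not scaled for this depth. EGFP 1 and Zac1 4 stood apart from the other 4 libraries on the second principal component (10.6 and 11.5 against -8.7 to -2.5; 20.2% of the variance). With a minimum mean count of 10, 12130 genes were tested, and 459 passed an adjusted p of 0.05 (edgeR quasi-likelihood test, Benjamini-Hochberg adjustment), which is 3.78%. Higher in Zac1 were 378 (3.12% of those tested) and lower 81 (0.668%), or 82.4% higher; on unscaled counts 99.3% of the calls were higher and with least-squares offsets for GC content 32.8%. Leaving the counts unscaled moves the median log2 fold change over the tested genes from -0.002 to 0.201.

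Hepatocyte genes were present. Hnf4a, the nuclear receptor that defines hepatocytes, stood at 195 to 213 CPM (a gene's reads as a share of its library, in the usual CPM unit and with TMM factors) over the 6 libraries and albumin (Alb) at 32.9 to 36.8 CPM. The table holds 17 hepatocyte markers, of which 10 were below the count minimum, and Apoa2 and Cyp2e1 had no read. Of the 7 tested, 0 rose and 1 fell: transthyretin (Ttr), a secreted transport protein, stood at 67.3 ± 2.71 CPM with EGFP and 42.4 ± 4.46 with Zac1 (SD, n = 3; log2 fold change -0.67, SE 0.08, edgeR adjusted p = 0.000211). The summed hepatocyte markers ranged from 1580 to 1828 CPM with EGFP and from 1434 to 1710 CPM with Zac1, which overlap.

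Zac1 libraries differed from EGFP libraries in 3 of these 35 matrix genes. Emilin2, Emilin1 and Thbs1 rose and none fell, while the 7 members with the most reads (Fn1, Fbln2, Agrn, Nid1, Lamc1, Lama5 and Efemp1) did not pass the test. Of the 35 genes, 24 reached the count minimum and were tested, and 3 of the 24 (12.5%) rose against 3.12% of all genes higher, and 0 of 24 fell against 0.668% lower. Emilin2 and Emilin1, 2 of the 3 calls, come with a limit. Emilin2, Emilin1, Thbs3 and Lama3 had an EGFP mean count below 10 and were tested only because their Zac1 counts were higher. Among all 265 tested genes with such an EGFP mean, 107 (40.4%) were called higher. Of the other 20 tested members, 1 was called, 10 had fold changes above 0 and 10 below 0, and their median log2 fold change was 0.02 against -0.002 for all tested genes.

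For Emilin2, the member with the largest rise, 250 bases before an annotated start inside the gene are shown (GRCm38 chr17:71311012-71311261, minus strand, in no annotated exon). They are set beside 250 bases before the outer start of Agrn (chr4:156197489-156197738, minus strand, in no annotated exon), the member with the smallest p among those with a negative fold change. Both come from RefSeq (GRCm38.p6), read 5′ to 3′, and capitals mark GGGGCC.
Emilin2: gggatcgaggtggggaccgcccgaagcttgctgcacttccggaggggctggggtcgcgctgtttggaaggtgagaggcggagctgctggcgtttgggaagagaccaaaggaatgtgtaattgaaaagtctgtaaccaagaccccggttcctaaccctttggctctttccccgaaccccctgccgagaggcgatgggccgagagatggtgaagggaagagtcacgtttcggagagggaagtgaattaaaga
Agrn: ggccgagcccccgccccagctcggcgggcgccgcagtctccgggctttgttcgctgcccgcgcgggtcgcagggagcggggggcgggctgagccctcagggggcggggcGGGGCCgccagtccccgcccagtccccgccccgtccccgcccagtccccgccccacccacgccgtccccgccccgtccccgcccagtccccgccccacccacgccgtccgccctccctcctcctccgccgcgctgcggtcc
The Emilin2 stretch has a GC content of 57.6% and the Agrn stretch one of 83.6%, against a median of 52.4% over all 32851 windows of this length. The Emilin2 start used is at 71311011, while the gene reaches 71311978. The window before another Emilin2 start (71311557-71311806, GC content 48.4%) overlaps annotated exons and is not printed. The palindrome GGGGCCCC, a GC-rich element of the kind described for Zac1, was searched on both strands. So was GGGGCC, which is part of that palindrome and overlaps it. GGGGCCCC lies in 292 (0.889%) of all windows and in 0 of the 34 windows of the 25 members that have one. The 10 without a window are Fn1, Eln, Fbn2, Lama1, Lama3, Lama4, Lamc1, Nid2, Lum and Thbs1, so the motif counts do not cover Thbs1, which rose. GGGGCC lies in 22.0% of all windows and in 14 of the 34 (41.2%), whose median GC content is 58.8%. It lies once in the Agrn stretch shown and once in the window before another Agrn start. Neither Emilin2 window holds it, while the window of Emilin1, which also rose, holds it once (GC content 63.2%). These are matches of letters in a window, not sites.

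Emilin2 and Emilin1 encode EMILINs, glycoproteins found at elastic fibres. Emilin2 (ENSMUSG00000024053; GRCm38 chromosome 17, 71252172 to 71311978, minus strand) had 0, 2 and 0 reads in the EGFP libraries and 18, 19 and 25 in the Zac1 libraries. The groups were far apart: 2 of 3 EGFP libraries held no read, and each Zac1 library held more than all EGFP libraries together. The ratio of summed counts, scaled for depth, was 26.9, with an exact 95% interval of 7.15 to 227 that covers counting error only (edgeR adjusted p = 0.00114). The level stayed low in Zac1 as well, at 1.20 ± 0.139 CPM (SD, n = 3). With any 1 library left out the gene passed the edgeR test (adjusted p from 0.000592 to 0.0107), as it did in all 19 alternatives that hold it. The fits with a library left out kept the genes selected on all 6 libraries, so they do not undo that selection. Of the tested genes with an EGFP mean count below 10, 40.4% were called higher.

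Emilin1 (ENSMUSG00000029163; chromosome 5, 30913402 to 30921277, plus strand) had 7, 8 and 2 reads in EGFP and 21, 33 and 26 in Zac1. Its CPM values were 0.466, 0.537 and 0.135 in EGFP and 1.31, 1.94 and 1.41 in Zac1, so the lowest Zac1 library lay above the highest EGFP library and the lowest value of all was EGFP 3. The log2 fold change was 2.01 (SE 0.41, edgeR adjusted p = 0.0117). The call was lost without EGFP 3 (adjusted p = 0.0628) and without Zac1 5 (0.0714). The other relatives of these genes were near 0. Summed over each group, Emilin3 had 2 reads with EGFP and 5 with Zac1, the multimerin gene Mmrn2 had 3 and 5, and Mmrn1 had none.

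**Figure D1:**
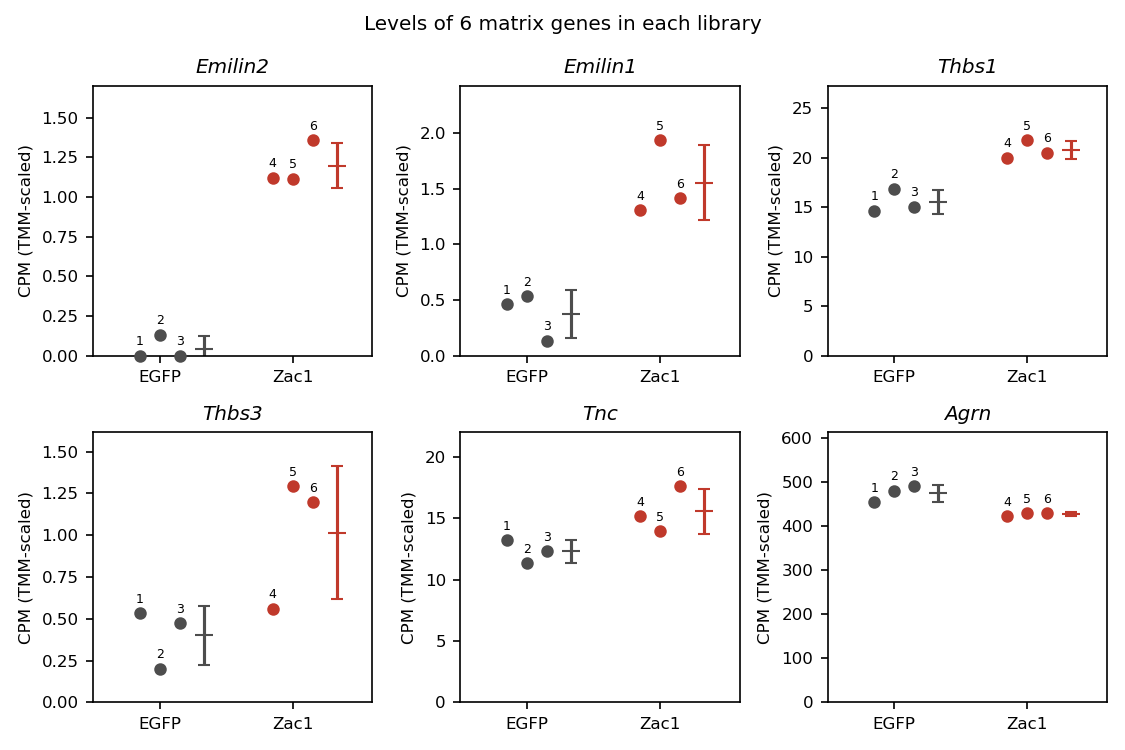
CPM (TMM-scaled, y axis, from 0) of 6 matrix genes in each of the 3 EGFP (grey) and 3 Zac1 (red) libraries, numbered as in the labels, with the mean and SD beside them. Emilin2, Emilin1 and Thbs1 passed the test; Thbs3, Tnc and Agrn had groups that do not overlap but did not pass it.

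The rest of the elastic fibre set was split between genes near 0 and abundant genes. The main structural genes were barely read. Elastin (Eln) had 1 read in all 6 libraries, fibrillin-2 (Fbn2) 1, fibrillin-1 (Fbn1) 15 in EGFP and 9 in Zac1, fibulin-1 (Fbln1) 20 and 22, and fibulin-5 (Fbln5), which ties elastin to cells, 2 and 3. By contrast, the fibulin family member Efemp1 had the highest level per length of all members, at 118 ± 5.74 CPM per kb of merged exons in EGFP and 113 ± 3.11 in Zac1, and fibulin-2 (Fbln2) came next, at 85.4 ± 2.88 and 93.3 ± 4.96 (SD, n = 3). Fbln2 was at 523, 554 and 556 CPM in EGFP and 560, 601 and 622 CPM in Zac1. The groups of Fbln2 do not overlap but almost touch, and its log2 fold change of 0.13 (SE 0.05) did not pass (edgeR adjusted p = 0.228). Fbln2 did pass without Zac1 4 (0.0376), without EGFP 1 and Zac1 4 together (0.0321), with voom quality weights (0.0444) and on unscaled counts (0.00521). Its sign turned with least-squares GC offsets (-0.02). Efemp1 (log2 fold change -0.06, SE 0.05) and its relative Efemp2 (-0.01, SE 0.08), which helps elastin assembly, did not pass either. Of the 10 genes of this set 5 were tested, 2 rose and 0 fell, with a median of 0.13. The 2 are Emilin1 and Emilin2, tested only through their Zac1 counts, a class of genes of which 40.4% were called higher against 3.12% of all tested genes.

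Fibronectin (Fn1), the adhesive glycoprotein bound by integrins, was read more often than any other member. It took 754, 779 and 765 CPM in EGFP and 789, 808 and 828 CPM in Zac1. Each Zac1 library lay above each EGFP library, but the log2 fold change was 0.08 (SE 0.04) and did not pass (edgeR adjusted p = 0.419). Of the alternatives only unscaled counts gave a call (0.0113). Per length Fn1 came after Efemp1 and Fbln2, at 65.6 ± 1.11 CPM per kb in EGFP and 69.2 ± 1.67 in Zac1.

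None of the 7 laminin genes tested passed, and their median log2 fold change was -0.01. The chains were expressed very unequally. Lamc1, the gamma chain of most laminins, led at 40.1 ± 2.14 CPM per kb in EGFP. The alpha chain gene Lama5 followed at 26.0 ± 0.625 and the beta chain gene Lamb2 at 25.3 ± 0.227, whose ranges overlap, and then the beta chain gene Lamb3 at 18.5 ± 0.933 (SD, n = 3). Far below them came Lamb1 at 0.843 ± 0.00967, Lama4 at 0.235 ± 0.0217 and Lama3 at 0.0521 ± 0.0133 CPM per kb. Lama1 had 1 read in all libraries, and Lama2, the alpha chain of muscle laminin, 5 in EGFP and 10 in Zac1.

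Against Lamc1, per length, the level of Lama5 was 0.648 ± 0.0241 in EGFP and 0.657 ± 0.0127 in Zac1, that of Lamb2 0.631 ± 0.0384 and 0.599 ± 0.0136, and that of Lamb3 0.462 ± 0.025 and 0.465 ± 0.0286 (SD, n = 3). These 3 ratios moved by no more than about the spread between libraries. The ratio to Lamc1 moved further for Lamb1, from 0.0211 ± 0.00133 to 0.0258 ± 0.000737, and for Nid1, the nidogen that binds the gamma chain, from between 1.29 and 1.36 in EGFP to between 1.42 and 1.56 in Zac1. For both, each Zac1 library lay above each EGFP library, and these ratios were not tested. Lamb1 was at 8.25, 8.39 and 8.44 CPM in EGFP and 9.77, 10.4 and 10.1 CPM in Zac1, with tight groups that do not overlap. Its log2 fold change was 0.27 (SE 0.11), which did not pass (edgeR adjusted p = 0.242) and was called only on unscaled counts (0.0183). Lamb2 went the other way, at 152, 154 and 155 CPM in EGFP and 141, 142 and 148 CPM in Zac1. Its log2 fold change of -0.10 (SE 0.05, edgeR adjusted p = 0.363) passed as lower with offsets for GC content, both from the least-squares curve (0.000784) and from the robust curve (0.0278), and turned to 0.11 on unscaled counts. Lama5 had a log2 fold change of -0.004 (SE 0.05), and of the alternatives only the least-squares GC curve gave a call (-0.29, adjusted p = 0.00142).

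**Figure D2:**
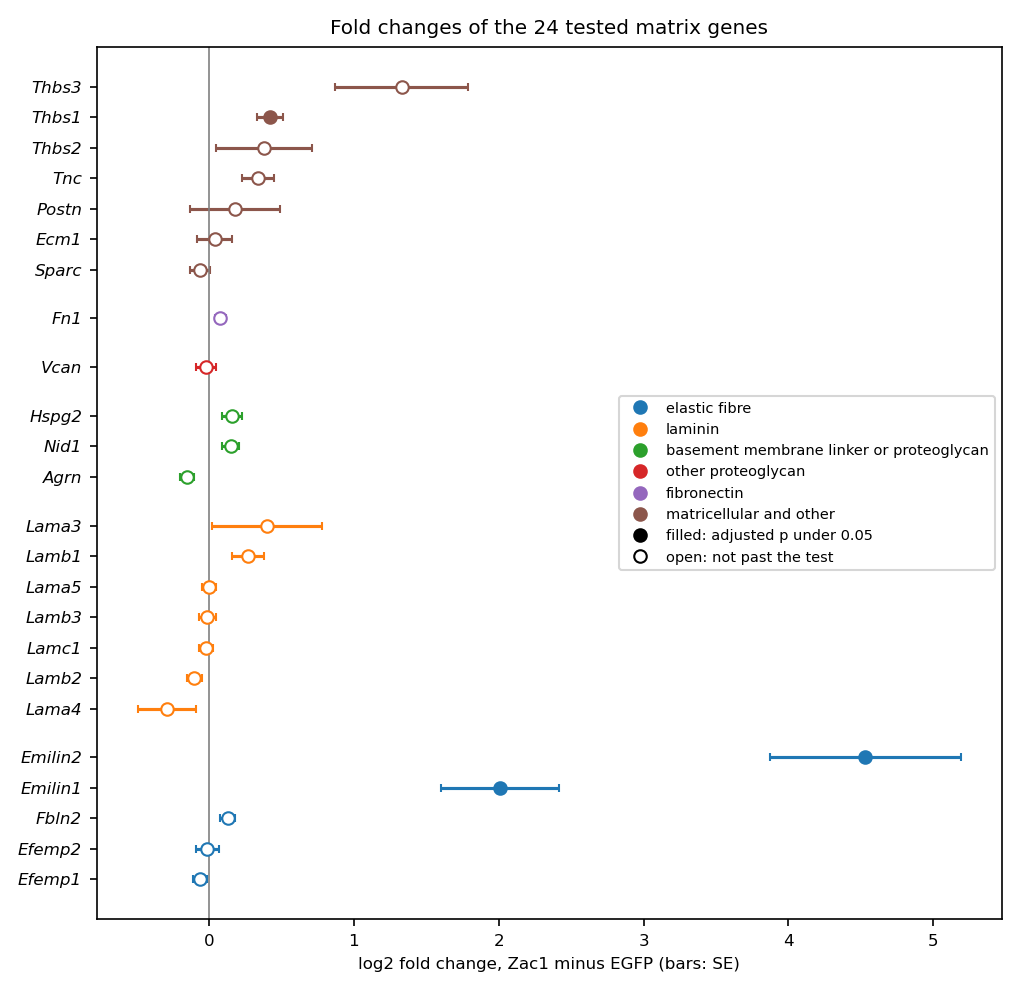
Log2 fold change of Zac1 minus EGFP (x axis) with its standard error (bars) for the 24 tested genes, grouped and coloured by role. Filled points passed an adjusted p of 0.05: Emilin2 (4.53), Emilin1 (2.01) and Thbs1 (0.42); Emilin2 is a fitted value against 2 reads in EGFP, and the 7 laminin genes lie between -0.29 and 0.40.

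The basement membrane linkers and heparan sulfate proteoglycans showed values on both sides of 0, and 0 of 3 tested genes passed. Nidogen-1 (Nid1), which bridges laminin and collagen IV, was at 402, 351 and 356 CPM in EGFP and 425, 413 and 391 CPM in Zac1. EGFP 1 lies inside the Zac1 range, and the log2 fold change of 0.15 (SE 0.06) did not pass (edgeR adjusted p = 0.221). Nid1 did pass without EGFP 1 (0.0438) and without EGFP 1 and Zac1 4 together (0.00578). It also passed with voom quality weights (0.0255) and on unscaled counts (0.00225). Perlecan (Hspg2) was at 59.5, 52.7 and 49.5 CPM in EGFP and 58.6, 60.4 and 61.4 CPM in Zac1, again with EGFP 1 among the Zac1 values (log2 fold change 0.16, SE 0.07, edgeR adjusted p = 0.299). Hspg2 passed as higher without EGFP 1 and Zac1 4 together (adjusted p = 0.00998), with voom quality weights (0.0422) and on unscaled counts (0.00812). Its sign turned with least-squares GC offsets (-0.171). Nidogen-2 (Nid2) had 1 read in EGFP and 2 in Zac1.

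Agrin (Agrn), the proteoglycan that organises the neuromuscular junction and is also a basement membrane component, was at 453, 480 and 489 CPM in EGFP and 422, 429 and 429 CPM in Zac1. All Zac1 libraries lay below all EGFP libraries. The log2 fold change was -0.15 (SE 0.05), with an unadjusted p of 0.0059 and an edgeR adjusted p of 0.1, so it did not pass. Agrn passed as lower with least-squares GC offsets (-0.28, adjusted p = 0.0012), with the robust ones (-0.21, 0.00826), with voom quality weights (0.014) and without EGFP 1 and Zac1 4 together (0.0067), and its sign turned on unscaled counts (0.05). In level per length Nid1 (53.3 ± 4.03 CPM per kb in EGFP) and Agrn (51.1 ± 2.02) overlap, while Hspg2 was at 3.77 ± 0.357.

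Among the other proteoglycans only versican (Vcan), a large chondroitin sulfate proteoglycan, was tested. Its level was 67.4 ± 2.90 CPM with EGFP and 66.5 ± 4.92 with Zac1 (SD, n = 3; log2 fold change -0.02, SE 0.07, edgeR adjusted p = 0.927). Of the small leucine-rich proteoglycans, which bind collagen fibrils, lumican (Lum) and fibromodulin (Fmod) had no read in any library, and biglycan (Bgn) had 2 in EGFP and 4 in Zac1.

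**Figure D3:**
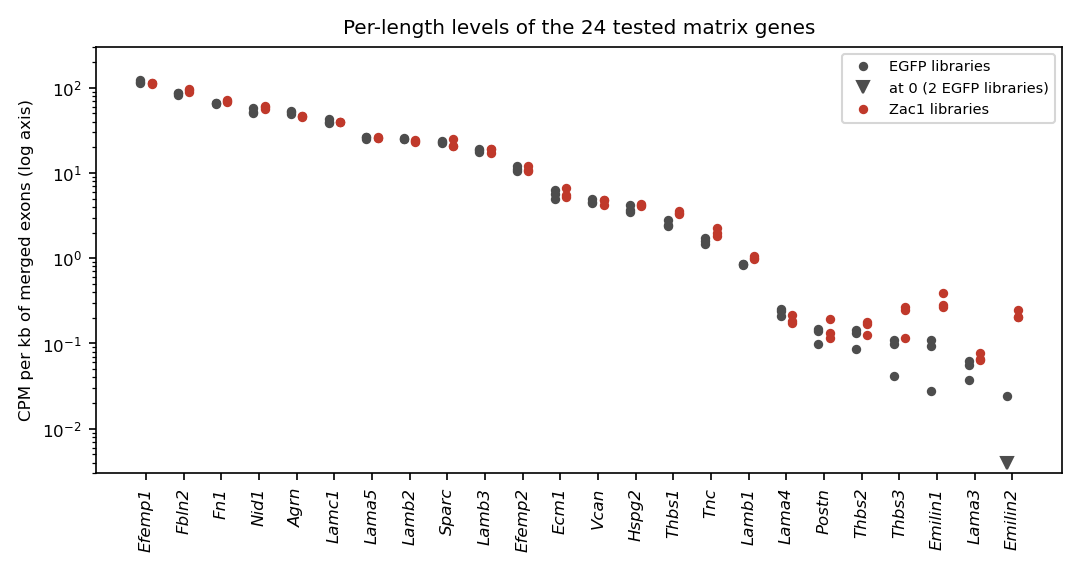
CPM per kb of merged exons (y axis, log scale) of the 24 tested genes, 1 point per library, EGFP in grey and Zac1 in red, ordered by the EGFP mean. The levels run from 118 for Efemp1 to 0.00812 for Emilin2 in EGFP; the triangle marks the 2 EGFP libraries without an Emilin2 read.

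The matricellular genes held the remaining call. Thbs1 (ENSMUSG00000040152; chromosome 2, 118111876 to 118127133, plus strand) encodes thrombospondin-1, a secreted protein that activates latent TGF-beta and binds CD47. It was at 14.6, 16.8 and 15.1 CPM in EGFP and 20.0, 21.8 and 20.5 CPM in Zac1. The groups do not overlap, and the gap between them exceeds the spread within either. The log2 fold change was 0.42 (SE 0.09, edgeR adjusted p = 0.0205), which is 1.34-fold. Thbs1 is the one called gene with more than 200 reads in each library, but its call was lost without EGFP 1 (adjusted p = 0.0546), EGFP 3 (0.103), Zac1 5 (0.133) or Zac1 6 (0.0693).

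Thbs3, a thrombospondin of the pentamer-forming class, had 8, 3 and 7 reads in EGFP and 9, 22 and 22 in Zac1. Zac1 4 lay close to the EGFP libraries and the other 2 well above them. The log2 fold change of 1.33 (SE 0.46) did not pass (edgeR adjusted p = 0.146). Thbs3 passed without Zac1 4 (0.0306), without EGFP 1 and Zac1 4 together (0.01), with voom quality weights (0.022) and on unscaled counts (0.0189). Exons of Thbs3 overlap those of Mtx1 on the other strand by 318 bases, and no source used here tells whether reads were counted by strand. Mtx1 had a log2 fold change of 0.04. Thbs2 had 38 reads in EGFP and 57 in Zac1, with overlapping groups in CPM (log2 fold change 0.38, SE 0.33).

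Tenascin-C (Tnc), a glycoprotein of wounds and developing tissue, was at 13.2, 11.3 and 12.4 CPM in EGFP and 15.2, 14.0 and 17.6 CPM in Zac1. The groups do not overlap, and the log2 fold change of 0.34 (SE 0.11) did not pass (edgeR adjusted p = 0.132). Sparc, a collagen-binding protein, was at 87.2 ± 3.10 CPM in EGFP and 83.9 ± 9.76 CPM in Zac1, Ecm1 at 14.2 ± 1.81 and 14.6 ± 1.76 CPM, and periostin (Postn) at 1.12 ± 0.221 and 1.27 ± 0.360 CPM (SD over 3 libraries). For these 3 genes the groups overlap. Of the 7 genes of this set, 1 rose, against 3.12% of all tested genes, and 0 fell, against 0.668%. Fold changes were above 0 for 6, against 49.5% of all tested genes. The median was 0.34, against -0.002 for all tested genes. Thbs3, with an EGFP mean count of 6, was tested only through its Zac1 counts.

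Over the 24 tested members the groups do not overlap in CPM for 9 genes with Zac1 higher and 2 with Zac1 lower, or 45.8%. Among all tested genes this holds for 11.9% with Zac1 higher and 8.75% with Zac1 lower, 20.6% in all. All 4 members with an EGFP mean count below 10 are among the 9, and they were tested only through their Zac1 counts. For the other 20 tested members the groups do not overlap for 5 genes with Zac1 higher and 2 with Zac1 lower. The median log2 fold change of the 24 was 0.10, and 14 (against 49.5% of all tested genes) were above 0. For those 20 the median was 0.02, and 10 were above 0. All 35 genes together took 0.359% to 0.361% of the reads in EGFP and 0.362% to 0.375% in Zac1. Fn1, Fbln2, Agrn, Nid1, Lamc1, Lama5 and Efemp1 made up 83.5% to 84.1% of that in each library.

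**Figure D4:**
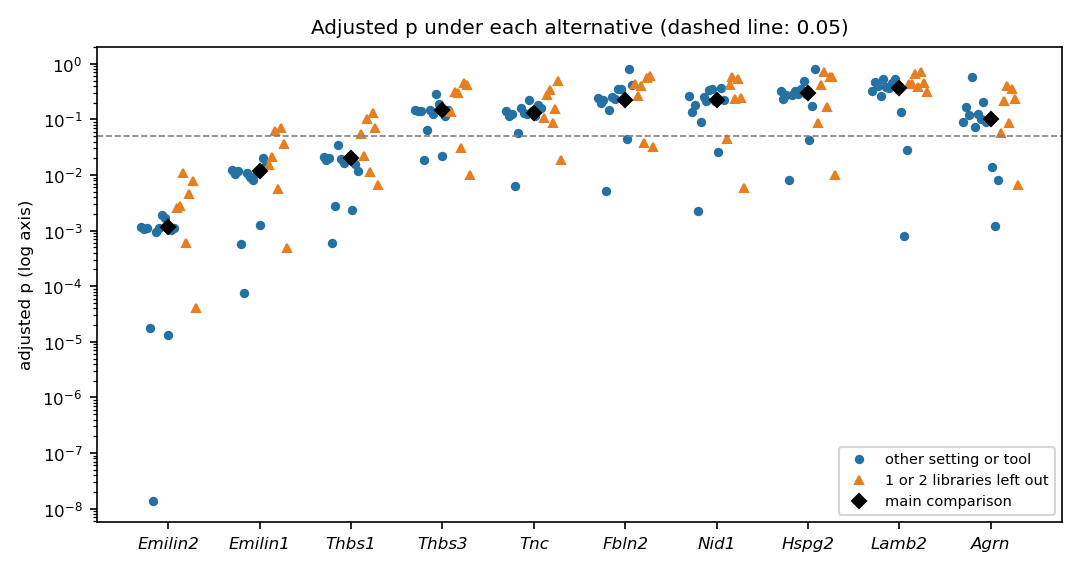
Adjusted p (y axis, log scale) of 10 matrix genes in the main comparison (diamonds), under other settings or tools (circles) and with 1 or 2 libraries left out (triangles); the dashed line is 0.05. Emilin2 stays below the line in each alternative shown, while Emilin1 and Thbs1 cross it when single libraries are left out.

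The same fit was read for other genes of this biology. The table holds 64 further non-collagen matrix genes, of which 25 were tested and 0 passed the edgeR test over all genes, with a median log2 fold change of 0.05; at an unadjusted p under 0.05, 5 were higher and 2 lower. The smallest p values were those of osteopontin (Spp1, log2 fold change -0.17, SE 0.05, edgeR adjusted p = 0.0861) and nephronectin (Npnt, 0.14, SE 0.05, 0.156). DESeq2 called none of these further matrix genes either. The 39 others were below the count minimum and were not tested. Among these, summed over each group, Bcan had 0 reads in EGFP and 28 in Zac1 and Podn 2 and 23, while Prelp had 16 and 12. Of 46 genes that build or edit glycosaminoglycan chains 32 were tested and 0 passed (median 0.02; 3 higher and 2 lower at an unadjusted p under 0.05, and none by DESeq2). There the heparan sulfate sulfotransferase gene Hs6st1 (0.23, edgeR adjusted p = 0.111) and the sulfate donor transporter gene Slc35b2 (-0.19, 0.204) came first.

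Of 38 receptors for these matrix proteins 27 were tested, 2 rose and 0 fell, or 7.41%, against 3.78% of all genes (median 0.05). Lrp1, a large endocytic receptor that takes up thrombospondin-1 among many ligands, was at 13.5, 11.1 and 8.23 CPM in EGFP and 16.9, 18.3 and 16.4 CPM in Zac1. The Zac1 libraries all lay above EGFP, with the EGFP libraries more spread (log2 fold change 0.65, SE 0.14, edgeR adjusted p = 0.019). Its call was lost without EGFP 3 (0.0869), Zac1 5 (0.103) or Zac1 6 (0.0537) and with the least-squares GC offsets (0.0605). Bcam, a receptor of the Lama5 chain, was at 5.32, 5.70 and 5.87 CPM in EGFP and 7.09, 8.16 and 9.51 CPM in Zac1. Its groups do not overlap either (0.56, SE 0.14), but its adjusted p of 0.049 was lost in 10 of 20 alternatives, up to 0.331. The integrin subunits with the highest levels per length, Itgb1 (-0.02) and Itga3 (0.13), and dystroglycan (Dag1, 0.04) did not pass.

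EMILINs and thrombospondins are also made by fibroblasts, stellate and endothelial cells, so markers of those cells are given beside the calls. Of 14 stellate cell and fibroblast markers, 13 were below the count minimum, and Dcn, Lrat, Thy1 and Hand2 had no read in any library. Their summed level was 1.14 to 2.02 CPM in EGFP and 2.68 to 3.58 CPM in Zac1, which do not overlap. Without Col1a1, which passed as higher (log2 fold change 1.54, SE 0.33, edgeR adjusted p = 0.0164), the ranges were 0.604 to 1.08 and 0.933 to 1.94 CPM and overlap. All 10 endothelial markers were below the minimum, with Lyve1, Tie1, Emcn and Clec4g at 0. Their sums were 0.604 to 0.945 CPM in EGFP and 0.996 to 1.58 CPM in Zac1, which almost touch without overlap. Both the stellate and the endothelial sums rest on low counts. Among all tested genes, taken singly, 20.6% have groups that do not overlap. Of 9 macrophage markers 7 were below the minimum, with Clec4f, Marco and C1qa at 0 and overlapping sums of 49.9 to 54.0 and 45.7 to 52.0 CPM. Of 8 bile duct cell markers 6 were tested and 0 passed, with sums of 785 to 825 CPM in EGFP and 760 to 791 CPM in Zac1. The part of such low-level markers in the rises of Emilin1, Emilin2 and Thbs1 was not tested.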

How the data were processed

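The authors deposited 1 table of whole-number counts, genes by 6 libraries. The submitters' processing notes name the tools FastQC, STAR, HTSeq and DESeq2. Versions, genome build, annotation and strand setting were not given in the sources used here. A directional kit was used, per the labels' protocols. Although the deposited name says normalized, median-of-ratios factors of 0.928 to 1.16 show counts without scaling. Replicate libraries differed beyond sampling noise (chi-square per degree of freedom 2.31 to 8.98).

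Symbols came from GENCODE M21 (GRCm38; 49326 of 49585 IDs matched), which also gave coordinates and merged exon lengths. With a minimum mean count of 10, Zac1 minus EGFP was tested (two-sided) with TMM factors and the quasi-likelihood test of edgeR 4.0.16 (R 4.3.3, prior count 0.125), with Benjamini-Hochberg adjustment over all 12130 genes and a threshold of 0.05. The SE is the size of the log2 fold change divided by the square root of F. The code was tested on simulated data.

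The members and lists were chosen with earlier results of these data known. All members are described; fuller statistics are given for members past the test in any fit and the one with the smallest p of each role, and from other lists for up to 4 genes past the test or the 2 with the smallest p. The EMILIN relatives, Mtx1, Col1a1, Itgb1, Itga3, Dag1, Alb, Ttr and Hnf4a were named for their role after their values were seen. Bcan, Podn and Prelp were named for their counts. Alternatives were other scalings, filters, variance models and tools (DESeq2 1.42.0, limma 3.58.1), GC offsets (loess, span 0.3; 12116 genes) and libraries left out.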

Additional observations from a re-analysis of the deposited data

How the results depend on the processing

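The number of members called was 3 under each other scaling of the libraries, with no filter, with robust variance or no dispersion trend, and with DESeq2 or limma on log2(CPM + 1). It was 10 on unscaled counts, 1 with a minimum mean count of 50, where neither EMILIN gene is tested, 8 with voom quality weights, 6 with least-squares and 5 with robust GC offsets, 9 without EGFP 1 and Zac1 4 together, and 1 to 5 with single libraries left out. It was 1, Emilin2, without EGFP 3 or without Zac1 5, and 5 without Zac1 4. For all genes, 459 calls became 3388 on unscaled counts, 979 with no filter, 241 with a minimum mean count of 50, 1297 with voom weights, 1033 with least-squares GC offsets, 1336 without EGFP 1 and Zac1 4 together, and 224 to 977 with single libraries left out. For the other matrix, receptor and glycosaminoglycan genes, 2 calls became 1 with library totals only, with a minimum mean count of 50, with DESeq2 and with robust GC offsets, 37 on unscaled counts, 8 with no filter, 10 with voom weights, 4 with least-squares GC offsets, 9 without both libraries, and 0 to 7 with single libraries left out. The cause of these shifts was not tested beyond the fewer genes or samples that some alternatives hold.

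Signs turned for Fn1 (-0.031), Fbln2 (-0.02) and Hspg2 (-0.171) with least-squares GC offsets, and for Lamb2 (0.108), Agrn (0.052), Vcan (0.179) and Lama5 (0.2) on unscaled counts. Lama5 also turned with upper-quartile scaling (0.012), library totals (0.001), voom weights (0.002) and without both libraries (0.022), and Vcan with voom weights (0.014) and GC offsets (0.011 and 0.027); with single libraries left out they ran from -0.024 to 0.009 and from -0.054 to 0.041. Of 317 values of named genes under alternatives, 251 kept direction and call, 20 lost the call, 26 gained it and 20 turned sign. The median level per length of tested members in EGFP was 5.15 CPM per kb with merged exons and 6.45 with the longest transcript, and the 10 members with the highest levels were shared. No paired analysis was run, because the groups share no replicate number. A fit with a block for EGFP 1 and Zac1 4, which stood apart on the second principal component, was not run either. Genes with a few reads per library, such as Emilin1, Thbs3 and Lama3, are limited by depth.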
